A study of Homo sapiens with 14 samples.

Results

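The genes described are 10 that encode transcription factors of the embryonic heart: HAND1, HAND2, TBX5, TBX20, GATA4, GATA5, NKX2-5, MEF2C, ISL1 and TBX2. They were taken by symbol from a table of RNA sequencing counts for 25952 genes, and all 10 were found in it and passed the filter on low counts. The cells are NT2, an established human embryonal carcinoma line that resembles early embryonic stem cells. The 14 libraries fall into 7 groups of 2: cells given BMP2 (bone morphogenetic protein 2, named in the labels as a muscle inducer) for 5, 10 or 21 days, cells given RA (all-trans retinoic acid, at 10 µM, named as a neuron inducer) for 5, 10 or 21 days, and untreated cells at day 0. BMP2 was used at 30 ng/ml in early tests and at 40 ng/ml later, and which dose a given library received is not given in the labels. All groups are bulk cultures of 1 line, and no library of vehicle-treated cells at the later days was used here. Whether both libraries of a group stem from separate cultures is not stated in the labels. The p-values therefore speak only of the variation between these libraries, which may be technical.

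In the vertebrate embryo, BMP signals from neighbouring tissue induce heart progenitors in the lateral mesoderm, and these in turn switch on genes of the contractile apparatus. GATA4 and GATA5 are zinc finger factors, NKX2-5 a homeodomain factor and MEF2C a MADS-box factor. TBX5 and TBX20 are T-box factors, and HAND1 and HAND2 are basic helix-loop-helix factors. ISL1, a LIM homeodomain factor, marks the second heart field, the progenitors that extend the heart tube. TBX2 represses chamber genes in the atrioventricular canal. Retinoic acid sets the posterior limit of the heart field and marks its inflow part. Most of these factors also work elsewhere. HAND1 and ISL1 serve in extraembryonic tissue such as amnion, HAND2 in limb buds and sympathetic neurons, and ISL1 in motor neurons. TBX2 and TBX5 act in limbs, GATA4 and GATA5 in endoderm and MEF2C in neurons and skeletal muscle.

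The upstream promoter sequence of 4 of the genes is shown. HAND1, ISL1 and TBX20 were the members called higher with BMP2 than with RA on every day. HAND2 was a member whose BMP2 level was highest at day 21, as were GATA4, GATA5 and TBX2. Each sequence is the 250 bases before an annotated RefSeq start on GRCh38.p14, read 5′ to 3′ on the gene's strand. Capitals mark a match to a searched motif. The coordinates are chr5:154478228-154478477 (minus strand) for HAND1 and chr5:51383198-51383447 (plus strand) for ISL1. They are chr7:35254101-35254350 (minus strand) for TBX20 and chr4:173530230-173530479 (minus strand) for HAND2.
HAND1: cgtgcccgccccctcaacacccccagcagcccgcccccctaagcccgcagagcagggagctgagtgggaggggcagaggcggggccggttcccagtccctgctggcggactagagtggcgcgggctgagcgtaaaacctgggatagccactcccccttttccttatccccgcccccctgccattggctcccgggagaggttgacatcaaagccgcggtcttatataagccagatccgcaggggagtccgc
ISL1: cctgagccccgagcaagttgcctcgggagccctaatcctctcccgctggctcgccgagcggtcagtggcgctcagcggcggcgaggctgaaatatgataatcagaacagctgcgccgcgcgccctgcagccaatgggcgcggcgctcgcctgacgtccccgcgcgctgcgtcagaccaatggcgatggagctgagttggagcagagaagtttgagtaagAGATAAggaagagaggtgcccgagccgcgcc
TBX20: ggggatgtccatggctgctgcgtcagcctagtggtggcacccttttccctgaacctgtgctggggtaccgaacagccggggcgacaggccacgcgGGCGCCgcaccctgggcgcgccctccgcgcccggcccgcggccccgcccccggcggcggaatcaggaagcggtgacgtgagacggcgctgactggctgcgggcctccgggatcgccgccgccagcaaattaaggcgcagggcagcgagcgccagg
HAND2: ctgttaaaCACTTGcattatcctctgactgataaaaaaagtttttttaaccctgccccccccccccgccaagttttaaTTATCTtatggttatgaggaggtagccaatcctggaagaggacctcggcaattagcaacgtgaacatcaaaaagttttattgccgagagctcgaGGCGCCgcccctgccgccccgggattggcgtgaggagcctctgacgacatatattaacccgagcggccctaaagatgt

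A set of 6 motifs was searched on both strands and marked: the GATA site AGATAA, the T-box core AGGTGT, the NK2 site CAAGTG, the MEF2 site (CTA and TAG with 4 bases of any kind between them), the GC-rich SMAD site GGCGCC and the RA response element (AGGTCA repeated after 5 bases of any kind). The HAND2 stretch holds a GATA match (TTATCT, read on the other strand), an NK2 match (CACTTG, on the other strand) and the SMAD site. The ISL1 stretch holds a GATA match, the TBX20 stretch a SMAD site, and the HAND1 stretch none of these letters. Among promoters searched but not shown, a TBX5 promoter held the SMAD site, and MEF2C promoters held T-box matches and an NK2 match. Among 34943 human promoters of the same length, AGATAA was found in 9.19%, AGGTGT in 9.57%, CAAGTG in 9.51%, the MEF2 site in 2.36%, GGCGCC in 16.4% and the RA element in 0.00286%. The E-box CANNTG, the core bound by HAND factors, occurs in 61.8% of them and was not marked. A promoter was taken for 6 of the 10 genes, in a search that left out chromosome 8, where GATA4 lies.

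Total counts ran from 45773278 to 75754396 per library. The 2 libraries of a group correlated at 0.964 or more across the 19142 genes tested, except those of BMP2 day 10 (r = 0.918). At BMP2 day 10, replicate 1 correlated best with a day 5 library (replicate 2, r = 0.981) and replicate 2 with a day 21 library (replicate 2, r = 0.966), so results on that day are also given by library. RA day 10 replicate 2 was closest to RA day 5 replicate 1 (r = 0.968). POU5F1, the pluripotency factor that defines embryonal carcinoma cells, had 1010 and 1010 CPM at day 0. CPM is the usual depth-scaled count, here with TMM library factors. At day 21 it had 2.42 and 4.11 CPM with BMP2 and 0.508 and 0.296 CPM with RA.

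With BMP2, 9 of the 10 genes were higher than in untreated cells at day 5 and 9 at day 10, and at day 21 8 were higher and 1, TBX5, was lower. Of all genes tested, 15.9%, 19.8% and 25.0% were higher at those 3 days and 13.4%, 16.4% and 22.1% lower (29.2%, 36.3% and 47.1% in either direction). With RA, 4 were higher at day 5, 5 at day 10, and at day 21 4 were higher and 1, TBX20, was lower. Of all genes, 5.59%, 12.9% and 23.4% were higher with RA at those days and 2.72%, 11.1% and 21.1% lower (8.31%, 24.0% and 44.6% in either direction). Directly against RA, BMP2 cells had 3 factor genes higher at day 5, 4 at day 10 and 5 at day 21, and none lower. Of all genes, 6.25%, 5.73% and 6.07% were higher with BMP2 at those days and 5.97%, 5.11% and 5.99% lower (12.2%, 10.8% and 12.1% in either direction). Over the mean of the 3 days 6 were higher with BMP2, 1 was lower and 3 were not called, beside 17.3% higher and 16.5% lower of all genes (33.8%). A gene is called where edgeR's quasi-likelihood test over all 14 libraries gave an adjusted p (Benjamini-Hochberg over 19142 genes) below 0.05. The comparisons with day 0 share the same 2 untreated libraries.

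**Figure D1:**
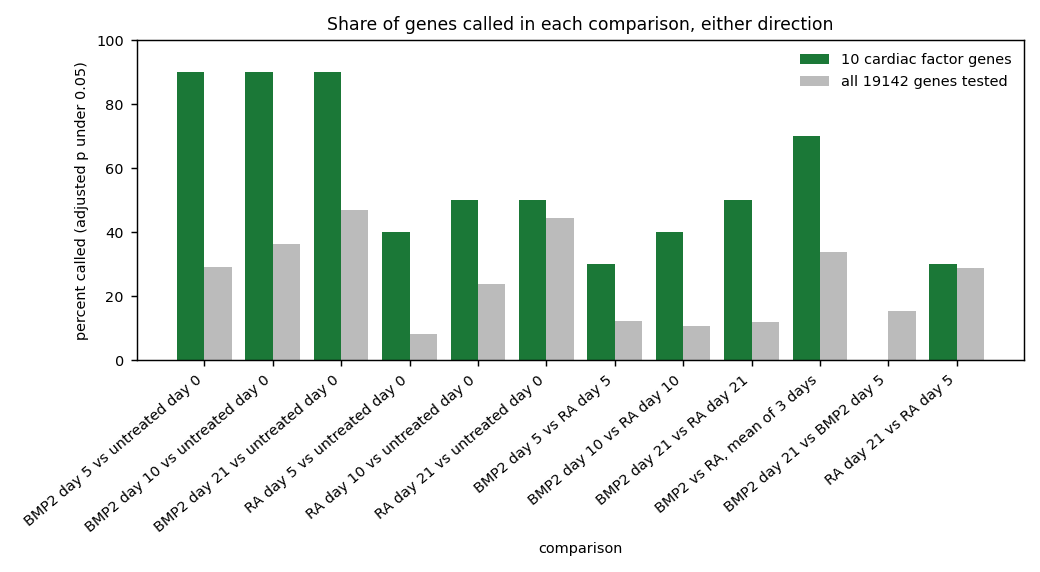
Share of genes called (percent, either direction) among the 10 cardiac factor genes (green) and among all 19142 genes tested (grey), for each comparison on the horizontal axis. The factor genes reach 90% at each BMP2 day against untreated cells, and at RA day 21 their 50% lies close to the 44.6% of all genes.

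The median log2 fold change of the 10 genes against untreated cells was 4.98, 5.41 and 5.72 at BMP2 days 5, 10 and 21 and 3.20, 2.58 and 1.48 at RA days 5, 10 and 21. The median over all genes lay between -0.00 and 0.10 in those 6 comparisons. Without single libraries the number called at BMP2 day 5 went down to 5 (untreated day 0 replicate 1 left out) and at RA day 5 to 1 (untreated replicate 2 left out). At RA day 10 and RA day 21 it went down to 3 (untreated replicate 2, and for day 21 also RA day 21 replicate 1). For BMP2 against RA it went down to 1 at day 5 (without either BMP2 day 5 library or RA day 5 replicate 2), to 1 at day 10 (without RA day 10 replicate 2) and to 1 at day 21 (without either RA day 21 library).

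**Figure D2:**
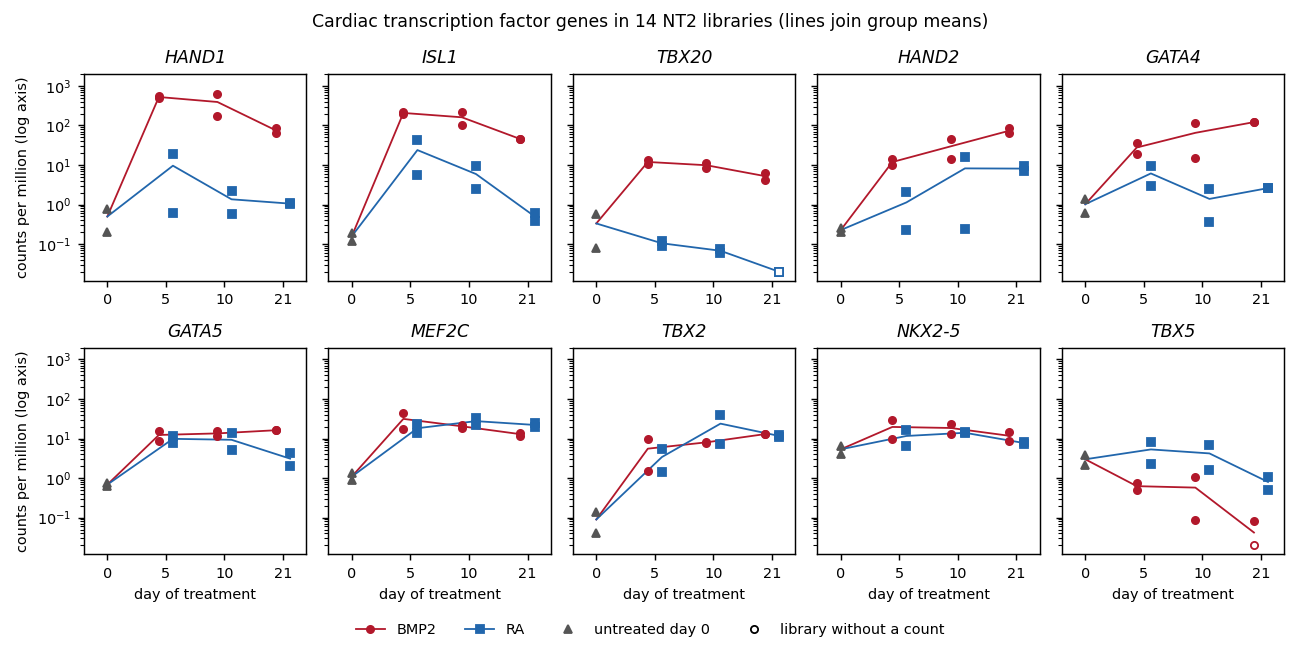
CPM (log axis) of each factor gene by day of treatment (days drawn evenly spaced): BMP2 libraries as red circles, RA libraries as blue squares and untreated libraries as grey triangles, with lines through group means. Open symbols at the foot mark libraries without a count (TBX20 in both RA day 21 libraries, TBX5 in BMP2 day 21 replicate 1); HAND1, ISL1 and TBX20 stand apart with BMP2, while MEF2C, TBX2 and NKX2-5 run close together.

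HAND1, a factor of the lateral mesoderm, the early left ventricle and the extraembryonic membranes, stood at 176 CPM or more at BMP2 days 5 and 10 and at or below 2.15 CPM in 7 of the 8 RA and untreated libraries. It had 0.203 and 0.793 CPM at day 0, and with BMP2 484 and 566 CPM at day 5, 609 and 176 CPM at day 10 and 84.8 and 64.9 CPM at day 21. Under RA it had 18.6 and 0.613 CPM at day 5, 2.15 and 0.566 CPM at day 10 and 1.09 and 1.02 CPM at day 21. Every BMP2 library lay above every RA and untreated library, and RA day 5 replicate 1 stood alone among the RA libraries. The log2 fold change over untreated cells was 9.97 ± 1.64 (SE; adjusted p = 0.0021) at BMP2 day 5, 9.55 ± 1.62 (0.0019) at day 10 and 7.16 ± 1.48 (0.0031) at day 21. With RA it was not called on any day (adjusted p 0.083, 0.48 and 0.55), but without RA day 5 replicate 2 the day 5 value was 5.18 (adjusted p = 0.013). The day 5 value was also called by DESeq2 (4.22, adjusted p = 0.0088) and without a filter on low counts (4.20, adjusted p = 0.029).

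Against RA, HAND1 was higher with BMP2 by 6.71 ± 0.82 on the log2 scale over the mean of the 3 days (adjusted p = 3.1e-04), a call that no left-out library ended. By day the difference was 5.78 ± 1.34 at day 5 (adjusted p = 0.023), 8.19 ± 1.51 at day 10 (0.01) and 6.14 ± 1.39 at day 21 (0.021). These single-day calls ended without 1 library of the groups compared. At day 5 these were either BMP2 library or RA replicate 2 (4.83 to 5.89, adjusted p 0.053 to 0.061), at day 10 either RA library (7.53 and 9.45, adjusted p 0.08 and 0.052) and at day 21 any of the 4 (5.93 to 6.34, adjusted p 0.058 to 0.17). With only the libraries compared the day 5 (5.80, adjusted p = 0.064) and day 10 calls (8.19, adjusted p = 0.16) ended.

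ISL1, the LIM homeodomain factor of second heart field progenitors, amnion and motor neurons, followed HAND1 with BMP2 but also appeared with RA at the early days. It had 0.122 and 0.195 CPM at day 0, and with BMP2 197 and 218 CPM at day 5, 221 and 101 CPM at day 10 and 45.0 and 45.4 CPM at day 21. The RA libraries had 42.1 and 5.66 CPM at day 5, 9.37 and 2.46 CPM at day 10 and 0.388 and 0.620 CPM at day 21. All treated libraries lay above the untreated ones, and every BMP2 library lay above every RA library. The log2 fold change over untreated cells was 10.30 ± 1.23 (adjusted p = 5.2e-04), 9.93 ± 1.22 (4.8e-04) and 8.10 ± 1.15 (4.4e-04) at BMP2 days 5, 10 and 21. With RA it was 7.18 ± 1.12 at day 5 (adjusted p = 0.0047), 5.16 ± 1.07 at day 10 (0.008) and 1.62 ± 1.12 at day 21 (0.26). The RA calls ended without either untreated library (6.92 and 7.59, adjusted p 0.054 and 0.065, at day 5, and 4.90 and 5.57, adjusted p 0.059 and 0.069, at day 10).

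Within the RA series ISL1 fell by 5.55 ± 0.99 on the log2 scale at day 21 against day 5 (adjusted p = 0.004), with no overlap between the libraries of those days. BMP2 cells had more ISL1 than RA cells by 4.79 ± 0.54 over the mean of the 3 days (adjusted p = 2.0e-04), a call kept whichever library was left out. By day it was 3.12 ± 0.85 (adjusted p = 0.041), 4.77 ± 0.92 (0.013) and 6.47 ± 1.03 (0.0055) at days 5, 10 and 21. The day 5 call ended without any 1 of the untreated, BMP2 day 5, BMP2 day 21 or RA day 21 libraries or RA day 5 replicate 2 (2.30 to 3.19, adjusted p 0.06 to 0.15). The day 10 call ended without RA day 10 replicate 2 (4.12, adjusted p = 0.077), and the day 21 call without either RA day 21 library (6.20 and 6.87, adjusted p 0.074 and 0.059). With only the libraries compared the day 5 (3.14, adjusted p = 0.079) and day 10 calls (4.78, adjusted p = 0.2) ended.

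TBX20, a T-box factor of the heart chambers and valves, was found with BMP2 on every day and was at or near 0 with RA. It had 0.0811 and 0.584 CPM at day 0, and with BMP2 13.2 and 10.7 CPM at day 5, 11.5 and 8.25 CPM at day 10 and 6.28 and 4.20 CPM at day 21. With RA it had 0.122 and 0.0875 CPM at day 5, 0.0761 and 0.0596 CPM at day 10 and no count at day 21. All 6 BMP2 libraries lay above all other libraries. Over untreated cells the log2 fold change was 5.12 ± 0.75 (adjusted p = 0.0016), 4.84 ± 0.74 (0.0015) and 3.93 ± 0.71 (0.002) at BMP2 days 5, 10 and 21. Against RA it was 6.82 ± 0.83 at day 5 (adjusted p = 0.0023) and 7.15 ± 0.86 at day 10 (0.0029), and at day 21 TBX20 was at least 247-fold higher with BMP2 (adjusted p = 0.0016), taking 3 counts over the RA group as the limit that a count of 0 allows. This limit, also used below, treats counts as independent. Between 66.0% and 73.5% of the counts from 1 to 19 were even, so the limit is uncertain. Over the mean of the 3 days TBX20 was called higher with BMP2 too (adjusted p = 2.8e-05), and no left-out library ended any of these BMP2 calls. Fitted with only the libraries compared, the day 10 calls ended, at 4.88 over untreated cells (adjusted p = 0.062) and 7.15 over RA (adjusted p = 0.078).

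At RA day 21 TBX20 was called lower than in untreated cells, by at least 17.9-fold from 0 against 46 counts (adjusted p = 0.0021), and lower than at RA day 5 by at least 4.80-fold from 0 against 12 counts (0.021). Of the 46 untreated counts 42 came from replicate 2, and without that library the first limit was 3.82-fold (without replicate 1 it was 27.5-fold). The second of these calls ended without any 1 of those 4 RA libraries (adjusted p 0.059 to 0.096). Without untreated replicate 1 TBX20 was also lower at RA day 5 (-2.47, adjusted p = 0.036) and RA day 10 (-3.08, adjusted p = 0.0097), and without untreated replicate 2 the RA day 5 value turned to 0.34 (adjusted p = 0.91). DESeq2 also called RA day 10 (-2.37, adjusted p = 0.019), as did edgeR without a filter on low counts (-2.31, adjusted p = 0.046). A lower level in these bulk libraries can be fewer cells with the RNA or less RNA per cell, which cannot be told apart.

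HAND2, the relative of HAND1 that serves the right ventricle, limb buds and sympathetic neurons, was highest in the BMP2 day 21 libraries. It had 0.203 and 0.250 CPM at day 0, and with BMP2 10.0 and 13.8 CPM at day 5, 14 and 45.5 CPM at day 10 and 84.8 and 63.0 CPM at day 21. In RA cells it had 2.03 and 0.233 CPM at day 5, 16.2 and 0.238 CPM at day 10 and 6.95 and 9.28 CPM at day 21. Every BMP2 library lay above the untreated ones, while RA replicate 2 of days 5 and 10 lay between the untreated values. The log2 fold change over untreated cells was 5.69 ± 1.64 (adjusted p = 0.026), 7.01 ± 1.72 (0.011) and 8.32 ± 1.80 (0.004) at BMP2 days 5, 10 and 21. The day 5 call ended without either untreated or either BMP2 day 5 library (5.48 to 5.90, adjusted p 0.052 to 0.14), and the day 10 call without either untreated library (6.88 and 7.18, adjusted p 0.077 and 0.079).

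HAND2 was also called with RA at day 10 (5.15 ± 1.61, adjusted p = 0.042) and day 21 (5.14 ± 1.61, adjusted p = 0.025). The RA day 10 value rests on replicate 1: without it the log2 fold change was 0.09 (adjusted p = 0.99). That call also ended without any 1 of the untreated, BMP2 day 5, BMP2 day 21 or RA day 21 libraries (5.02 to 5.32, adjusted p 0.057 to 0.2) with the replicate number as a block (4.84, adjusted p = 0.071) and with only the libraries compared (5.18, adjusted p = 0.069). The RA day 21 call ended without any 1 untreated or RA day 21 library (4.90 to 5.32, adjusted p 0.052 to 0.13). BMP2 cells had more HAND2 than RA cells over the mean of the 3 days (2.82 ± 0.79, adjusted p = 0.02), which ended without RA day 5 replicate 2 (2.54, adjusted p = 0.056) or without either RA day 21 library (2.77 and 2.91, adjusted p 0.067 and 0.057). On single days it was not called (adjusted p 0.14, 0.39 and 0.15 at days 5, 10 and 21). Without either RA day 10 library it was called at day 5 (3.43, adjusted p = 0.036) and day 21 (3.20, adjusted p = 0.041), and without RA day 10 replicate 1 at day 10 (6.95, adjusted p = 0.034). With only the libraries compared day 21 was called too (3.19, adjusted p = 0.0015).

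HAND2 shares 24.1% of its exon bases with HAND2-AS1, the divergent antisense RNA gene beside it, and the sources used here do not state whether counting used strand. Reads of the pair therefore cannot be told apart there. HAND2-AS1 had 0.0406 and 0.264 CPM at day 0, and with BMP2 1.41 and 3.62 CPM at day 5, 1.76 and 12.9 CPM at day 10 and 48.6 and 30.3 CPM at day 21. It rose along with HAND2 in the BMP2 libraries and was higher with BMP2 than with RA by 3.63 ± 0.92 over the mean of the 3 days (adjusted p = 0.013), a call that ended without RA day 5 replicate 2 (3.65, adjusted p = 0.051). Of the other members, TBX5 shares 5.78% of its exon bases with TBX5-AS1 and MEF2C 3.59% with MEF2C-AS1, and the remaining 7 share none with another annotated gene (GENCODE release 29).

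GATA4, a zinc finger factor of cardiac mesoderm and endoderm, was above 100 CPM in 3 BMP2 libraries. It had 0.629 and 1.41 CPM at day 0, and with BMP2 36.8 and 18.7 CPM at day 5, 15.3 and 115 CPM at day 10 and 121 and 122 CPM at day 21. Under RA it had 9.26 and 2.99 CPM at day 5, 2.42 and 0.358 CPM at day 10 and 2.58 and 2.63 CPM at day 21. The BMP2 libraries did not overlap with those of RA or of day 0. The log2 fold change over untreated cells was 4.75 ± 1.11 (adjusted p = 0.011), 5.97 ± 1.17 (0.0038) and 6.88 ± 1.22 (0.0013) at BMP2 days 5, 10 and 21, and with RA none was called (adjusted p 0.16, 0.8 and 0.3). The BMP2 day 5 call ended without either untreated library (4.30 and 5.46, adjusted p 0.084 and 0.059), and the day 10 call with only the libraries compared (6.0, adjusted p = 0.06). At RA day 5 GATA4 was called by DESeq2 (2.55, adjusted p = 0.033) and with only the libraries compared (2.60, adjusted p = 0.046), and that fit also called RA day 21 (1.29, adjusted p = 0.039).

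Against RA, GATA4 was higher with BMP2 by 4.43 ± 0.62 over the mean of the 3 days (adjusted p = 6.7e-04), by 5.57 ± 1.15 at day 10 (0.016) and by 5.54 ± 1.13 at day 21 (0.014), and day 5 was not called (2.19 ± 0.98, adjusted p = 0.17). The mean held without each library in turn. The day 10 call ended without RA day 10 replicate 2 (4.75, adjusted p = 0.086) or with only the libraries compared (5.54, adjusted p = 0.25), and the day 21 call without BMP2 day 21 replicate 2 or either RA day 21 library (5.55 to 5.57, adjusted p 0.051 to 0.13).

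**Figure D3:**
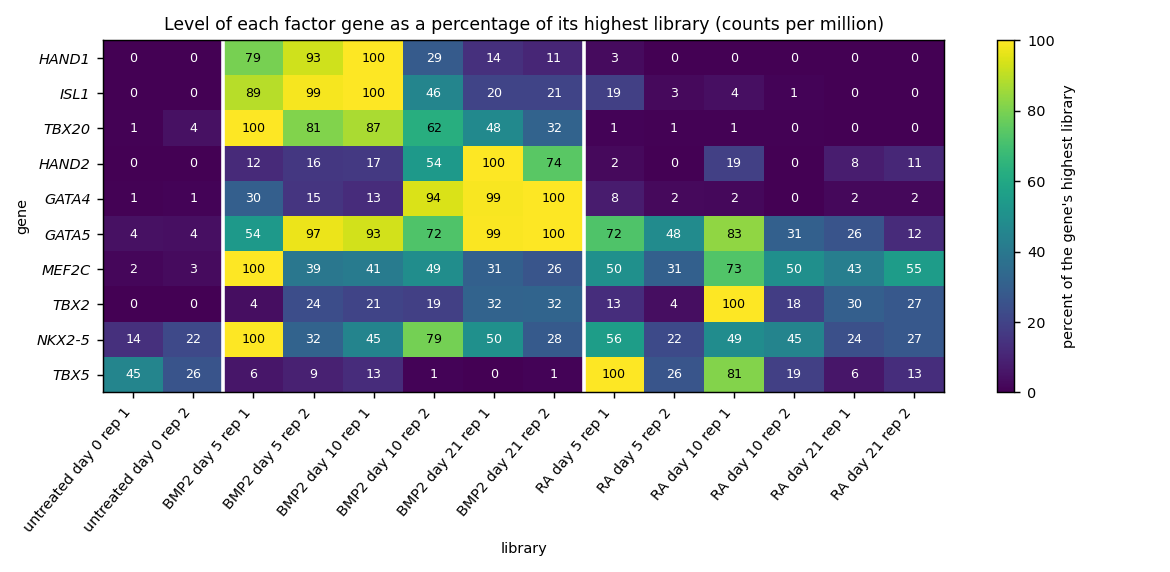
Each factor gene (rows) in the 14 libraries (columns) as a percentage of its highest library, from CPM; brighter cells are higher. BMP2 day 10 replicate 1 holds the highest HAND1 and ISL1 values, while replicate 2 stands at 94% of the highest GATA4 value and 29% of the highest HAND1 value.

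Within the BMP2 series the factor genes differed in how their levels lay over time, and the 2 BMP2 day 10 libraries differed in the same genes. In replicate 1 of that day HAND1 (609 CPM) and ISL1 (221 CPM) were as high as at day 5, and HAND2 (14 CPM) and GATA4 (15.3 CPM) were near or below their day 5 values. In replicate 2 GATA4 (115 CPM) lay near its day 21 level, and HAND1 (176 CPM), ISL1 (101 CPM) and HAND2 (45.5 CPM) lay between days 5 and 21. At day 21 against day 5 the HAND1 mean was 74.8 against 525 CPM, the ISL1 mean 45.2 against 207 CPM, the HAND2 mean 73.9 against 11.9 CPM and the GATA4 mean 122 against 27.8 CPM, with no overlap of libraries for any of the 4. None of the 10 genes was called in that comparison by edgeR over all 14 libraries (0 of 10, beside 15.5% of all genes, 7.77% higher and 7.75% lower). Fitted by edgeR with only the libraries compared, those 4 were called. HAND1 (-2.82, adjusted p = 0.0024) and ISL1 (-2.21, 0.0021) were lower at day 21, and HAND2 (2.62, 0.0035) and GATA4 (2.12, 0.011) higher. In the fit over all libraries the following held. At an unadjusted p below 0.05 there were 4 (HAND1, TBX5, MEF2C and ISL1). DESeq2 called 3 (TBX5, MEF2C and ISL1).

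Whether some of these genes were called depended on single libraries, many of them outside the comparison. Apart from MEF2C without BMP2 day 5 replicate 2, the fold changes hardly moved. HAND1 (-2.81 and -2.82) and ISL1 (-2.20 and -2.21) were called lower at BMP2 day 21 than at day 5 without either RA day 5 library (adjusted p 0.041 to 0.042). GATA4 was called higher without BMP2 day 10 replicate 1 (2.13, adjusted p = 0.048). MEF2C was called lower without BMP2 day 5 replicate 2 (-1.83, adjusted p = 0.031) or either BMP2 day 10 library (-1.29, adjusted p 0.046), and TBX5 without either BMP2 day 10 library (-3.84, adjusted p 0.041 and 0.042). For the difference between the treatments in their change between days 5 and 21, edgeR over all libraries called no member (0 of 10, beside 1.64% of all genes, 0.935% higher and 0.705% lower, and 5 at an unadjusted p below 0.05) and DESeq2 called 1, ISL1 (3.39, adjusted p = 0.028). With only the libraries compared, edgeR called GATA4 (3.35, adjusted p = 0.036).

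GATA5, MEF2C and TBX2 were higher with both treatments. GATA5, the zinc finger factor of endocardium and endoderm, had 0.730 and 0.640 CPM at day 0, and with BMP2 8.85 and 15.8 CPM at day 5, 15.2 and 11.8 CPM at day 10 and 16.2 and 16.3 CPM at day 21. The RA libraries had 11.8 and 7.88 CPM at day 5, 13.6 and 5.01 CPM at day 10 and 4.23 and 1.98 CPM at day 21. All 12 treated libraries lay above the untreated ones, and the treatments overlapped at days 5 and 10 but not at day 21. Over untreated cells the log2 fold change was 4.17 ± 0.58 (adjusted p = 9.9e-04), 4.30 ± 0.58 (7.1e-04) and 4.57 ± 0.59 (2.7e-04) at BMP2 days 5, 10 and 21 and 3.84 ± 0.57 (0.0037), 3.76 ± 0.57 (0.002) and 2.18 ± 0.54 (0.0088) at RA days 5, 10 and 21. The RA day 5 call ended without untreated replicate 2 (3.75, adjusted p = 0.058), and the RA day 21 call without that library (2.08, adjusted p = 0.066) or RA day 21 replicate 1 (1.52, adjusted p = 0.077).

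BMP2 cells had more GATA5 than RA cells at day 21 (2.39 ± 0.53, adjusted p = 0.019) and over the mean of the 3 days (1.08 ± 0.29, adjusted p = 0.018). The day 21 call ended without any 1 of its 4 libraries (1.96 to 3.05, adjusted p 0.061 to 0.14), and the mean without RA day 5 replicate 2 (1.00, adjusted p = 0.055). With RA, GATA5 fell by 1.67 ± 0.52 at day 21 against day 5 (adjusted p = 0.036). That call ended without either untreated library, BMP2 day 21 replicate 1, either RA day 5 library or RA day 21 replicate 2 (-1.26 to -1.95, adjusted p 0.053 to 0.21). The 3 genes called lower between those RA days (TBX20, GATA5 and ISL1) stand beside 14.8% of all genes lower and 13.9% higher (28.7%).

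MEF2C, the MADS-box factor of the early heart tube, skeletal muscle and neurons, was higher with both treatments and was not called apart between them. It had 0.872 and 1.31 CPM at day 0, and with BMP2 45.1 and 17.8 CPM at day 5, 18.7 and 22.1 CPM at day 10 and 13.9 and 11.9 CPM at day 21. With RA it had 22.7 and 13.8 CPM at day 5, 32.8 and 22.4 CPM at day 10 and 19.3 and 24.9 CPM at day 21. All treated libraries lay above the untreated ones, and RA lay above BMP2 at days 10 and 21 without overlap. Against untreated cells MEF2C was called on every day of both treatments (log2 fold changes 3.55 to 4.84, adjusted p 1.7e-04 to 0.0012), and no left-out library ended any of these calls. BMP2 and RA were not called apart over the mean of the 3 days (-0.14 ± 0.24, adjusted p = 0.69) or on any day (adjusted p 0.25, 0.54 and 0.24), which does not show equal levels. A fit of only the libraries compared called MEF2C lower with BMP2 than with RA at day 21 (-0.77, adjusted p = 0.037). Without both BMP2 day 10 libraries the mean difference was 0.02 (adjusted p = 0.99).

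TBX2, a T-box repressor of the atrioventricular canal that also acts in limb and other mesenchyme, had 0.0406 and 0.139 CPM at day 0. With BMP2 it had 1.54 and 9.56 CPM at day 5, 8.34 and 7.71 CPM at day 10 and 12.9 and 13.0 CPM at day 21. In RA cells it had 5.35 and 1.46 CPM at day 5, 40.4 and 7.27 CPM at day 10 and 12.2 and 11.1 CPM at day 21. Every treated library lay above both untreated ones, and the highest was RA day 10 replicate 1. Against untreated cells the log2 fold change was 5.84 ± 1.21 (adjusted p = 0.0063), 6.37 ± 1.23 (0.0035) and 7.06 ± 1.25 (0.0014) at BMP2 days 5, 10 and 21 and 5.13 ± 1.18 (0.028), 7.94 ± 1.29 (0.0028) and 6.90 ± 1.25 (0.0017) at RA days 5, 10 and 21. The day 5 calls ended without untreated replicate 1 with BMP2 (5.30, adjusted p = 0.054), and with RA without either untreated library or RA day 5 replicate 1 (3.91 to 6.31, adjusted p 0.15 to 0.16). The difference between BMP2 and RA over the mean of the 3 days was -0.23 ± 0.52 (adjusted p = 0.77). Its sign turned without BMP2 day 5 replicate 1 (0.02), RA day 5 replicate 1 (0.17), RA day 10 replicate 1 (0.35) or both BMP2 day 10 libraries (0.44), with adjusted p from 0.64 to 1.

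NKX2-5, the homeodomain factor used as a defining marker of heart progenitors, was present before treatment and changed by less than most other members. It had 4.14 and 6.55 CPM at day 0, and with BMP2 29.8 and 9.53 CPM at day 5, 13.4 and 23.6 CPM at day 10 and 15.0 and 8.46 CPM at day 21. Under RA it had 16.6 and 6.65 CPM at day 5, 14.5 and 13.5 CPM at day 10 and 7.29 and 8.19 CPM at day 21. All treated libraries lay above the untreated ones, some by little, and BMP2 and RA overlapped at days 5 and 10. Over untreated cells the log2 fold change was 1.88 ± 0.59 at BMP2 day 5 (adjusted p = 0.038), 1.79 ± 0.59 at day 10 (0.038) and 1.13 ± 0.58 at day 21 (0.14), and no RA day was called (adjusted p 0.27, 0.11 and 0.48). The day 5 call ended without either untreated or either RA day 21 library, without BMP2 day 5 replicate 1 (0.83 to 2.24, adjusted p 0.054 to 0.34) and with the replicate number as a block (1.76, adjusted p = 0.058). The day 10 call ended without any 1 of the untreated, RA day 10 or RA day 21 libraries or BMP2 day 10 replicate 2 (1.32 to 2.16, adjusted p 0.05 to 0.2). That call also ended with only the libraries compared (1.82, adjusted p = 0.079), a fit in which RA day 10 was called (1.41, adjusted p = 0.02). BMP2 and RA were not called apart over the mean of the 3 days (0.58 ± 0.33, adjusted p = 0.2).

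TBX5, the T-box factor of the left ventricle, atria and forelimb, ran against the other members with BMP2. It had 3.81 and 2.17 CPM at day 0, and with BMP2 0.495 and 0.755 CPM at day 5, 1.06 and 0.0894 CPM at day 10, and 0 and 0.0840 CPM at day 21. The RA libraries had 8.40 and 2.22 CPM at day 5, 6.83 and 1.59 CPM at day 10 and 0.508 and 1.09 CPM at day 21. Every BMP2 library lay below both untreated libraries, and on each day below both RA libraries. TBX5 was lower than in untreated cells at BMP2 day 21 (-6.09 ± 1.51, adjusted p = 0.008), which ended without BMP2 day 21 replicate 1 (-5.12, adjusted p = 0.053). Days 5 and 10 were not called (-2.25 ± 1.16, adjusted p = 0.17, and -2.35 ± 1.17, adjusted p = 0.14), although day 10 was without its replicate 1 (-5.03, adjusted p = 0.025). No RA day was called against untreated cells (adjusted p 0.7, 0.77 and 0.2). Fitted with only the libraries compared, TBX5 was called lower at BMP2 day 5 (-2.22, adjusted p = 0.026) and RA day 21 (-1.94, adjusted p = 0.012).

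Over the mean of the 3 days TBX5 was lower with BMP2 than with RA by -3.37 ± 0.74 on the log2 scale (adjusted p = 0.0065), and no left-out library ended that call. The single days were not called by edgeR (adjusted p 0.12, 0.15 and 0.088 at days 5, 10 and 21). DESeq2 gave -3.08, -2.84 and -4.23 with adjusted p of 0.029, 0.05 and 0.0093, all under the threshold before rounding, and edgeR with only the libraries compared called day 21 (-4.19, adjusted p = 0.041). Without either BMP2 day 10 library days 5 (-3.08, adjusted p = 0.042) and 21 (-4.20, adjusted p = 0.034) were called, and without BMP2 day 10 replicate 1 so was day 10 (-5.52, adjusted p = 0.029). RA day 21 against RA day 5 was not called (-2.72 ± 1.17, adjusted p = 0.11), and it was without either BMP2 day 10 library (-2.72, adjusted p 0.041 and 0.042).

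**Figure D4:**
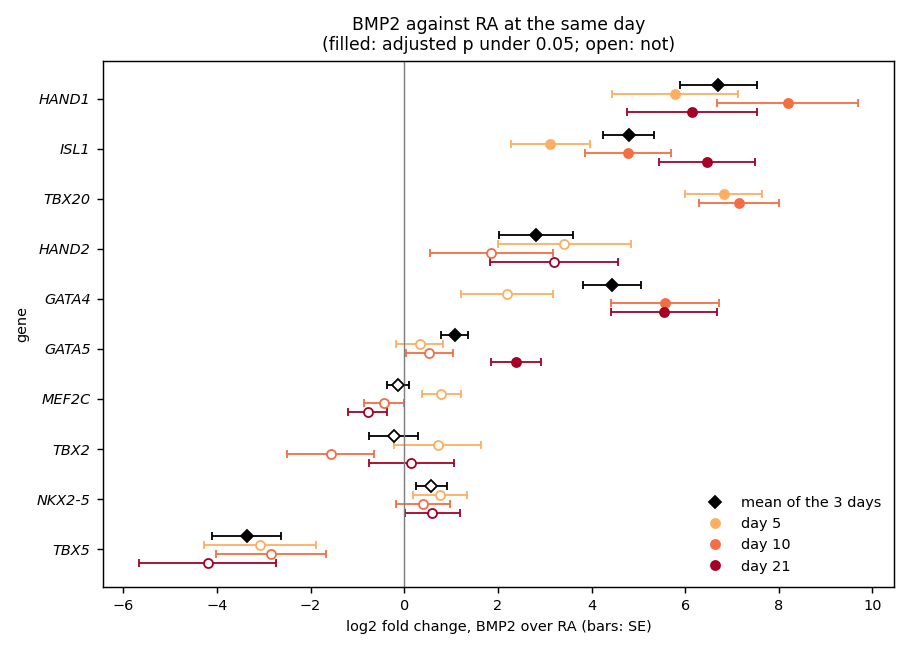
Log2 fold change of BMP2 over RA for each factor gene, with its standard error, over the mean of the 3 days (black diamonds) and at days 5, 10 and 21 (circles, light to dark); filled symbols have an adjusted p below 0.05. HAND1 and ISL1 are filled throughout, TBX5 lies on the RA side, and TBX20 is drawn for days 5 and 10 only because it had no count at RA day 21.

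Across the 14 libraries the log2 levels of HAND1 correlated with those of TBX20 (r = 0.96) and ISL1 (r = 0.96), and with those of TBX5 at r = -0.50. The libraries share treatments and days, so these values describe the pattern and carry no test. Among 14378 genes with a mean of at least 1 CPM, the pattern most like HAND1 was that of DOK4 (r = 0.989), followed by PITX1 (0.984) and PMP22 (0.982). For TBX20 it was MYOCD (0.978), TGM1 (0.974) and POPDC2 (0.973), and for ISL1 it was PITX1 (0.969), TRIM55 (0.964) and HAND1 (0.956). GATA4 was most like PRDM6 (0.975), HAND2 like YIPF3 (0.949), MEF2C like TSPYL4 (0.953), TBX2 like CPLANE2 (0.959), GATA5 like FLRT3 (0.928), TBX5 like GABRA3 (0.942) and NKX2-5 like PFDN1 (0.898).

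Of 21 tested relatives from the same gene families, 10 were higher with BMP2 than with RA over the mean of the 3 days and 2 were lower. For this and each further list count over that mean, 17.3% of all genes were higher and 16.5% lower. NKX2-3 and NKX2-6, NK2 relatives of pharyngeal and gut mesenchyme, had BMP2 means of 2.65 and 1.46 CPM, against 0 and 0.00449 CPM with RA (adjusted p = 1.0e-04 and 2.3e-04). TBX4, the hindlimb and lung T-box factor, averaged 22.3 CPM with BMP2 and 0.592 CPM with RA (5.56 ± 0.58, adjusted p = 1.3e-04), and TBX3, the close relative of TBX2 in the conduction system, 171 against 36.8 CPM (2.01 ± 0.53, adjusted p = 0.015). ISL2, a motor neuron relative of ISL1, was low throughout (0.230 against 0.0293 CPM, adjusted p = 0.03). GATA6, which works beside GATA4 in cardiac mesoderm and endoderm, averaged 13.9 CPM with BMP2 against 34.5 CPM with RA (-1.25 ± 0.30, adjusted p = 0.011). Even so, it was higher than in untreated cells (mean 0.406 CPM) on every day of both treatments (adjusted p 1.0e-04 to 0.001). GATA6 shares 7.56% of its exon bases with GATA6-AS1, which was also lower with BMP2 than with RA (-1.93 ± 0.37, adjusted p = 0.0035). The other lower relative was LHX2 (-0.80 ± 0.23, adjusted p = 0.025). The ISL2 call ended without 8 single libraries (all but BMP2 day 10 replicate 1, BMP2 day 21 replicate 1, RA day 5 replicate 2, RA day 21 replicate 2 and both untreated ones; adjusted p 0.058 to 0.11). The LHX2 call ended without 7 (both BMP2 day 5, both BMP2 day 21, and replicate 1 of each RA day; adjusted p 0.052 to 0.085).

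Genes that carry out the work of heart muscle were split. Of 25 tested, beside 17.3% of all genes higher and 16.5% lower, 14 were higher with BMP2 than with RA over the mean of the 3 days and 1, PDGFRA, a receptor of cardiac mesoderm and fibroblasts, was lower (16.9 against 60.5 CPM, -1.67 ± 0.28, adjusted p = 0.0018). The summed level of the list was 1850 to 1910 CPM at day 0. It was 1460 to 3590, 1500 to 2830 and 1870 to 1950 CPM at BMP2 days 5, 10 and 21. At RA days 5, 10 and 21 it was 896 to 1120, 843 to 889 and 882 to 938 CPM. The untreated range overlapped that of each BMP2 day and lay above that of each RA day. ACTC1, cardiac actin, averaged 456 against 13.5 CPM (5.53 ± 0.69, adjusted p = 3.4e-04), and TNNT2, cardiac troponin T, 135 against 5.92 CPM (4.57 ± 0.68, adjusted p = 8.7e-04). ANKRD1, a stress-responsive protein of the sarcomere, averaged 293 against 12.9 CPM (4.45 ± 0.81, adjusted p = 0.0026) and MYL4, the atrial light chain, 61.3 against 6.17 CPM (4.02 ± 0.68, adjusted p = 0.0017). Against untreated cells 9 were higher and 2 lower at BMP2 day 5, and 10 higher and 1 lower at day 10. Of all genes, 15.9% and 19.8% were higher and 13.4% and 16.4% lower on those days. With RA, 2 were higher and 3 lower at day 5, and 5 higher and 4 lower at day 10 (8.31% and 24.0% of all genes in either direction). The split at day 21 was different: at BMP2 day 21 8 were higher and 6 lower (median log2 fold change 0.32), and at RA day 21 6 were higher and 7 lower (median -2.18), beside 47.1% and 44.6% of all genes in either direction. These 14 and 13 calls became 9 without either untreated library or BMP2 day 21 replicate 2, and 6 without untreated replicate 2 or RA day 21 replicate 2. With BMP2, ACTC1 had 1760 and 272 CPM at day 5, 301 and 357 CPM at day 10 and 20.9 and 19.4 CPM at day 21. TNNT2 had 126 and 27.2, 38.2 and 241, and 204 and 172 CPM on those days. At BMP2 day 21 against day 5 ACTC1 was lower (-5.66 ± 1.16, adjusted p = 0.018) and TNNT2 was not called (1.29 ± 1.02, adjusted p = 0.4). NPPA, the atrial natriuretic peptide that GATA4, NKX2-5 and TBX5 regulate together, stayed at or below 0.760 CPM in every BMP2 library, against 0.487 and 1.75 CPM at day 0. MYH6, the alpha myosin heavy chain, had 12.9 and 13.3 CPM at day 0, between 20.5 and 46.9 CPM in the BMP2 libraries and between 24.3 and 36.1 CPM in the RA libraries. It lies beside its near copy MYH7, so how reads were split between the pair is uncertain. TNNI3, the adult cardiac troponin I, had at most 0.179 CPM in any BMP2 library.

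**Figure D5:**
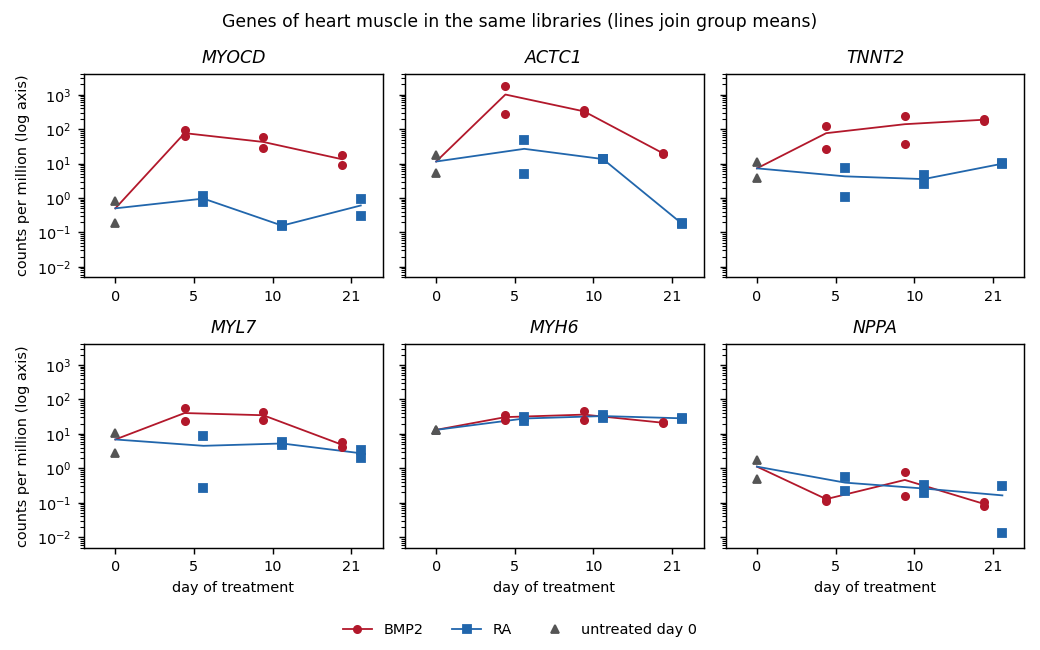
CPM (log axis) of MYOCD, ACTC1, TNNT2, MYL7, MYH6 and NPPA by day of treatment, with BMP2 libraries as red circles, RA libraries as blue squares and untreated libraries as grey triangles. MYOCD, ACTC1 and TNNT2 stand above RA in every BMP2 library of the same day, while NPPA stays low with both treatments.

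Of 31 other regulators of the heart, 7 were higher and 6 lower with BMP2 than with RA over the mean of the 3 days, near the shares of all genes (17.3% higher and 16.5% lower). MYOCD, the coactivator of cardiac and smooth muscle genes, averaged 44.3 CPM with BMP2 and 0.576 CPM with RA (6.28 ± 0.47, adjusted p = 2.7e-05). HEY1, a Notch target of the chambers, averaged 24.6 against 1.59 CPM (4.23 ± 0.83, adjusted p = 0.0036) and TBXT, the early mesoderm factor brachyury, 0.444 against 0.0290 CPM (5.47 ± 1.77, adjusted p = 0.045). TBXT had no count at RA days 5 and 21, so the size of its fold change is uncertain. NR2F1, a nuclear receptor of atrial and neural cells, ran the other way at 1.84 against 125 CPM (-5.98 ± 0.30, adjusted p = 3.5e-06). The 13 calls went down to 8 with the replicate number as a block, and also without replicate 1 of BMP2 day 5, RA day 10 or RA day 21, and to 7 without RA day 21 replicate 2. The TBXT call ended without any library but BMP2 day 10 replicate 2, BMP2 day 21 replicate 1 and the 2 untreated ones (adjusted p 0.059 to 1).

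Among 12 signals and RA-responsive genes of the second heart field, FGF10, a growth factor of that field, was higher with BMP2 (5.15 against 1.08 CPM, 3.60 ± 0.77, adjusted p = 0.0059), as was WNT5A (183 against 105 CPM, 0.72 ± 0.19, adjusted p = 0.015), though not without both BMP2 day 10 libraries (0.51, adjusted p = 0.11). Among those lower with BMP2 were HOXB1 (0.0859 against 39.1 CPM, -7.27 ± 0.54, adjusted p = 2.7e-05), SHH (0.165 against 3.50 CPM, -4.38 ± 0.70, adjusted p = 0.0013) and the RA-degrading enzyme CYP26A1 (12.4 against 278 CPM, -4.24 ± 0.46, adjusted p = 1.6e-04). Of 22 readout genes of BMP signalling, 12 were higher with BMP2 and 1, ID3, was lower (83.1 against 212 CPM, -1.20 ± 0.22, adjusted p = 0.0029). The higher ones with the largest differences were the antagonist GREM1 (4.38 ± 0.77, adjusted p = 0.0021), the ligand BMP4 (2.52 ± 0.31, 3.2e-04), the target MSX2 (2.26 ± 0.43, 0.003) and the antagonist NOG (2.18 ± 0.24, 1.8e-04). MSX1, the other MSX target, differed by 1.78 ± 0.49 (adjusted p = 0.02), which ended without RA day 10 replicate 1 or either RA day 21 library (adjusted p 0.05 to 0.056).

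Several cell types that use the same factors were checked through their own markers. Of 12 tested amnion and trophoblast markers, 7 were higher with BMP2 than with RA over the mean of the 3 days and none lower, led by GABRP (5.82 ± 0.93, adjusted p = 0.0013), HSD3B1 (4.84 ± 0.83, 0.0024), VTCN1 (3.37 ± 1.10, 0.038) and KRT7 (3.03 ± 0.60, 0.0038). The summed level of that list was 291 to 348 CPM at day 0, 2800 to 3210, 2660 to 3160 and 1650 to 1920 CPM at BMP2 days 5, 10 and 21, and 470 to 1260, 503 to 691 and 1040 to 1260 CPM at RA days 5, 10 and 21. No gene of it was without a count at BMP2 days 5 and 10, and CDX2 and ELF5 were at BMP2 day 21. HAND1 and ISL1, which amnion also expresses, were highest at BMP2 days 5 and 10, where this list was highest too. At RA day 21, where the list summed to 1040 to 1260 CPM, HAND1 had 1.09 and 1.02 CPM and ISL1 0.388 and 0.620 CPM. The markers named above were low there too, and other genes of the list made up most of that sum. GABRP had 0.254 and 0.539 CPM, HSD3B1 0 and 0.0269 CPM, VTCN1 1.14 and 0.728 CPM and KRT7 1.85 and 3.14 CPM. In BMP2 day 10 replicate 2 GABRP had 5.25 CPM and KRT7 309 CPM, beside 176 CPM for HAND1 and 101 CPM for ISL1. VTCN1 had 0.134 CPM, HSD3B1 0.760 CPM and GATA3 23.4 CPM in that library. In replicate 1 GABRP had 577 CPM, VTCN1 189 CPM, HSD3B1 1.70 CPM and GATA3 105 CPM, all higher, and KRT7 37.5 CPM, which was lower. The part of amnion in the levels of HAND1 and ISL1 was not tested. The VTCN1 value rests on BMP2 day 10 replicate 1 (0.22 without it, adjusted p = 0.85), and its call also ended without any library except BMP2 day 5 replicate 1, BMP2 day 10 replicate 2 and the 2 untreated ones (adjusted p 0.056 to 0.16).

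Of 9 smooth muscle markers 6 were higher with BMP2 than with RA and none lower, beside 17.3% of all genes higher, among them ACTA2 (203 against 5.34 CPM, 5.22 ± 0.48, adjusted p = 7.2e-05), CNN1 (2.55 ± 0.36, 6.7e-04), CALD1 (2.00 ± 0.37, 0.0029) and DES (1.92 ± 0.32, 0.0015). DES was not higher than before treatment: it had 0.862 to 1.71 CPM in the BMP2 libraries and 0.0808 to 0.914 CPM in the RA libraries, against 1.95 and 2.31 CPM at day 0. Their summed level was 344 to 412 CPM at day 0, 1930 to 3580, 1840 to 3840 and 1750 to 2620 CPM at BMP2 days 5, 10 and 21, and 298 to 941, 404 to 1010 and 561 to 821 CPM at RA days 5, 10 and 21. Of 9 markers of epicardium and limb mesenchyme 4 were higher and 1 lower with BMP2. Among the higher ones were PITX1, the hindlimb factor (90.6 against 2.55 CPM, 6.46 ± 0.67, adjusted p = 1.3e-04), UPK3B of mesothelium (4.08 ± 0.52, 4.0e-04) and PRRX2 of mesenchyme (1.68 ± 0.19, 2.1e-04). SHOX2 of the sinoatrial node was the lower one (0.330 against 1.70 CPM, -3.95 ± 1.06, adjusted p = 0.019). That list summed to 7.79 to 11.0 CPM at day 0, 287 to 653, 189 to 606 and 321 to 516 CPM at BMP2 days 5, 10 and 21, and 36.3 to 79.4, 64.8 to 157 and 265 to 319 CPM at RA days 5, 10 and 21. The SHOX2 call ended without replicate 1 of RA day 5 or of RA day 10 (adjusted p 0.051 and 0.054) and without both BMP2 day 10 libraries (-0.39, adjusted p = 0.79). The part of smooth muscle or mesenchymal cells in the factor levels was not tested.

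Markers of the neurons that use HAND2 and ISL1 were also counted. Of 8 sympathetic neuron markers none was higher and 4 were lower with BMP2 than with RA, among them SLC18A1 (-4.67 ± 1.31, adjusted p = 0.032), INSM1 (-4.50 ± 1.31, 0.027) and CHRNA3 (-3.15 ± 0.26, 3.7e-05). The sizes for SLC18A1 and INSM1 are uncertain, because some groups had no count. SLC18A1 had none at BMP2 days 10 and 21 and at most 0.971 CPM in any library. INSM1 had none at BMP2 day 21, and at most 4.23 CPM with RA against 4.46 and 10.4 CPM at day 0. The CHRNA3 values did not run this way on every day. At day 21 it had 8.72 and 7.03 CPM with BMP2 and 5.80 and 6.09 CPM with RA, and none of the 8 was called higher with BMP2 there. TH, the enzyme of catecholamine synthesis, had no count in either BMP2 day 21 library. Against untreated cells none of the 8 was higher and 3 were lower on each BMP2 day. For this and further counts here against untreated cells, 15.9%, 19.8% and 25.0% of all genes were higher at BMP2 days 5, 10 and 21. The shares of all genes lower were 13.4%, 16.4% and 22.1%. The list went down to 2 calls without both BMP2 day 10 libraries or without RA day 21 replicate 1, where INSM1 (-3.51, adjusted p = 1) and SLC18A1 (-4.43, adjusted p = 0.088) were no longer called. INSM1 was also lost without RA day 5 replicate 2 (0.051), and SLC18A1 without either BMP2 day 21 or RA day 10 library, BMP2 day 5 replicate 2, RA day 5 replicate 1 or RA day 21 replicate 2 (adjusted p 0.057 to 1). Of 6 motor and sensory neuron markers 1 was lower and none higher with BMP2 than with RA over the mean of the 3 days. At day 21 alone 1 was higher, beside 6.07% of all genes. Against untreated cells 1, 2 and 2 of them were higher at BMP2 days 5, 10 and 21 and 1 was lower on each day, and without either untreated library none was higher at days 5 and 10. MNX1, the defining motor neuron factor, did not exceed 0.233 CPM in any library. Of 6 neuron markers 4 were lower with BMP2 than with RA, while 3 were higher and 1 lower at BMP2 day 21 than in untreated cells. The 4 calls at BMP2 day 21 became 2 without untreated replicate 2 (1 higher) or BMP2 day 21 replicate 2 (2 higher). The part of neurons in the factor levels was not tested. MYOD1 and MYF6, the defining skeletal muscle factors, had no count at any BMP2 day, and of 4 tested skeletal muscle markers none was higher and 1, PAX7 of muscle and neural progenitors, was lower with BMP2 than with RA (2.30 against 9.48 CPM, -2.66 ± 0.73, adjusted p = 0.019). That count was 0 without either BMP2 day 5 or either BMP2 day 21 library, RA day 5 replicate 2 or RA day 10 replicate 2, and 2 without BMP2 day 10 replicate 2. Of 9 endoderm markers 2 were higher and 3 lower, and of 8 pluripotency markers 1 was higher and 2 lower, beside 33.8% of all genes in either direction. The 3 pluripotency calls became 6 without BMP2 day 10 replicate 1.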

How the data were processed

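RNA was sequenced from 14 NT2 libraries, 2 in each of 7 groups. The authors deposited whole-number read counts and RPKM values (reads scaled to gene length and library size) per gene. STAR, featureCounts, DESeq2 and the build hg19 are named, without versions, per the submitters' processing notes, and the sources used here do not state the strand use. Between 66.0% and 73.5% of the counts from 1 to 19 were even, and the deposited RPKM values used the whole gene span as length for 89% of 5814 genes, so RPKM entered only as an alternative and levels were not compared between genes. Symbols were found for 25214 of 25952 identifiers in a reference list and for 58 more in GENCODE release 29, and 680 had none.

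The counts were fitted with edgeR 4.0.16 (R 4.3.3): filterByExpr with a minimum count of 10, TMM factors (0.918 to 1.15), 7 group means over all 14 libraries, and the quasi-likelihood F-test with 7 residual degrees of freedom. P-values were adjusted by Benjamini-Hochberg over 19142 genes in each of 13 comparisons, and 0.05 was the threshold. The SE is the log2 fold change divided by the square root of F. With 2 libraries against 2, an exact permutation test of 1 gene cannot give a p below 0.333 and was not used. Alternatives were RLE factors, no filter, a filter of 1 CPM in 2 libraries, robust dispersions, the replicate number as a block, only the libraries compared, DESeq2 1.42.0, limma 3.58.1 on log2(RPKM + 1) and log2(RPKM + 0.1), each library left out in turn and, added after seeing the data, both BMP2 day 10 libraries left out. Correlations of the difference between replicates 1 and 2 ran from -0.34 to 0.15 over 21 pairs of groups, with 3 above 0.1, so libraries of the same number were treated as unpaired.

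The 10 genes and 15 further lists (207 genes, 197 in the table) were chosen with earlier results of these data known. Named from each list were up to 4 called genes with the largest log2 fold change plus a fixed set, and the 3 genes most like each member by Pearson r of log2(CPM + 1). LHX2, PDGFRA, FGF10, WNT5A, ID3, PAX7, MYL7, TNNI3, TH, MYOD1, MYF6, CDX2 and ELF5 fall outside that rule and were chosen after their values were seen. Some genes of these lists are not reported here by name. Promoter sequence came from RefSeq. Figures were drawn with matplotlib 3.10.9.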

Additional observations from a re-analysis of the deposited data

How the results depend on the processing

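Of the factor genes' called fold changes, 581 values were recomputed under other settings: 550 stayed called in the same direction, 31 were no longer called and 0 turned. With 1 library left out, 794 of 882 stayed called and 88 did not. Of the 57 fold changes not called, 17 turned direction under at least 1 setting, the largest of those values being 1.49 in size. Scaling with RLE factors moved the median of all genes by at most 0.06 in size.

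The number of factor genes called moved by more than 1.5 times in these cases. Without a filter on low counts it was 2 for BMP2 day 21 against day 5. With only the libraries compared it was 1 for BMP2 against RA at day 5, 0 at day 10 and 8 at day 21, 4 for BMP2 day 21 against day 5, and 1 for the difference between the treatments in that change. DESeq2 gave 3 for BMP2 day 21 against day 5, 5 for RA day 21 against day 5 and 1 for the difference in change. Limma on log2(RPKM + 1), from which TBX5, TBX20 and MEF2C dropped out at the RPKM filter, gave 3 at BMP2 day 5, 5 at BMP2 day 21, and 0, 2 and 1 at RA days 5, 10 and 21 against untreated cells. It gave 2 for BMP2 against RA at day 10, 4 for BMP2 day 21 against day 5 (HAND1, HAND2, GATA4 and ISL1) and 0 for RA day 21 against day 5. With 0.1 in place of 1 it gave 2, 3 and 3 at RA days 5, 10 and 21. The calls it ended with 1 were those of TBX2 at all 3 BMP2 days and RA day 5 (0.41 to 1.16, adjusted p 0.053 to 0.65), HAND2 at BMP2 day 5 and RA days 10 and 21 (1.07 to 1.60, 0.07 to 0.22), GATA4 at BMP2 day 5 and day 10 against RA (0.38 and 0.68, 0.24 and 0.076), NKX2-5 at BMP2 day 5 (1.26, 0.053), and GATA5 and ISL1 with RA (GATA5 at days 5 and 21, ISL1 at days 5 and 10, both at day 21 against day 5; adjusted p 0.058 to 0.39). Without both BMP2 day 10 libraries the count was 2 for BMP2 day 21 against day 5 (TBX5, -3.86, adjusted p = 0.04, and MEF2C, -1.31, adjusted p = 0.044). Apart from these genes lost at the RPKM filter and libraries left out by construction, the cause was not tested.

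Leaving out 1 library gave 5 to 9, 7 to 10 and 8 to 9 called genes at BMP2 days 5, 10 and 21 and 1 to 5, 3 to 5 and 3 to 5 at RA days 5, 10 and 21 against untreated cells. It gave 1 to 4, 1 to 5 and 1 to 6 for BMP2 against RA at days 5, 10 and 21, 5 to 7 for their mean, 0 to 3 for BMP2 day 21 against day 5, 1 to 4 for RA day 21 against day 5 and 0 to 0 for the difference in change. With the replicate number as a block, the calls of NKX2-5 at BMP2 day 5 (1.76, adjusted p = 0.058) and HAND2 at RA day 10 (4.84, adjusted p = 0.071) ended, as did those of TBXT (5.54, adjusted p = 0.063) and VTCN1 (3.23, adjusted p = 0.063), and no other factor gene's call changed. With only 2 libraries a group, counts near 0 (TBX5 and TBX20 at day 21, HAND1, HAND2, ISL1 and TBX2 at day 0) limit the size of the fold changes.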
